A study of Mus musculus with 8 samples.

Results

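The data described here compare CD8 T cells taken from MC38 tumours of mice given a single high dose of a long-acting interleukin-7 with those of mice given buffer. They come from experiment 1 of a series of 4 single-cell libraries. A barcode was counted as a CD8 T cell when it had at least 500 genes, less than 10% of its unique molecular identifiers (UMIs) from mitochondrial genes, at least 1 UMI of Cd8a or Cd8b1, at least 1 UMI of Cd3d, Cd3e or Cd3g, no UMI of Cd4 and at most 1 UMI of Lyz2, C1qa, C1qb and C1qc together. By this rule 8619 of the 11950 barcodes of experiment 1 were kept, out of 36011 in the whole series: 3183 with buffer and 5436 with the interleukin. All mice were wild-type C57BL/6 and carried palpable MC38 tumours, a mouse colon carcinoma line. The treated group received rhIL-7-hyFc, recombinant human interleukin-7 joined to a hybrid Fc, at 10 mg/kg under the skin, and its tumours were taken 7 days later. The labels give the other group only as buffer. The number of mice behind each library and their age are not given in the sources used here, and human interleukin-7 was used in a mouse host. CD8 T cells were enriched from digested tumours with magnetic beads, and each suspension gave 1 library of 5′ transcripts and 1 library of T cell receptor (TCR) transcripts. With 1 library per group no difference below has a replicate check, and no test was possible. The 95% intervals, exact Poisson for levels, exact conditional binomial for folds and Clopper-Pearson for shares, cover counting error only.

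Interleukin-7 is made by stromal cells and signals through a receptor of the interleukin-7 receptor alpha chain (Il7r) and the common gamma chain (Il2rg), which activates JAK kinases and STAT5. Naive and memory T cells, which carry the receptor, depend on it for survival and slow division. T cells that meet their antigen repeatedly in a tumour gain inhibitory receptors such as PD-1 (Pdcd1) and lose the transcription factor TCF-1 (Tcf7), and the descendants of 1 T cell can be recognised because they share the same rearranged TCR alpha (TRA) and beta (TRB) chains.

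The gated cells held 32374536 UMIs with buffer and 58376950 with rhIL-7-hyFc, with a median of 8220 and 9671.5 UMIs per cell. The gate kept 67.8% of the barcodes that passed the quality limits with buffer and 91.0% with rhIL-7-hyFc. Its last step, the limit on Lyz2, C1qa, C1qb and C1qc, took buffer barcodes from 3915 to 3183 and rhIL-7-hyFc barcodes from 5599 to 5436. At least 3 of 8 further T cell markers were seen in 90.5% and 99.2% of the gated cells, and 21 gated barcodes occurred in both libraries. A productive TRB chain was found in 75.5% [73.9-77.0] of the buffer cells and 95.1% [94.5-95.6] of the rhIL-7-hyFc cells. The 781 buffer cells without one had a median of 2296 UMIs, and the 268 rhIL-7-hyFc cells without one a median of 9870.5. RNA of dendritic cells also differed. Cells with 5 or more UMIs of H2-Aa, H2-Ab1, H2-Eb1, Cd74 and Fscn1 together made up 7.23% [6.35-8.18] of the buffer cells and 0.478% [0.313-0.700] of the rhIL-7-hyFc cells. Of 13 dendritic cell markers, 10 of them measured, 9 were at least 1.5-fold lower with rhIL-7-hyFc and none was higher, and their summed level was 2030 against 1088 counts per 1000000 UMIs (CPM). Bst2, which T cells also express and interferon induces, made up 828 and 1035 CPM of these sums. Of 12 macrophage and monocyte markers, 8 of them measured, 7 were lower and none higher (1113 against 350 CPM). Summed B cell markers, by contrast, were at 47.8 and 119 CPM, of which Ighm made up 36.8 and 107 CPM. The part of these cells in the differences of T cell genes was not tested. Values are also given for the 2317 buffer and 4960 rhIL-7-hyFc cells that had both TCR chains.

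The libraries differed widely in how their TCRs were shared among cells. A clonotype was defined here by the V gene and the nucleotide sequence of the third complementarity-determining region (CDR3), the antigen-contacting loop, of both chains. CDR3 sequences of the 3 largest clonotypes of each library are printed first, of the TRB chain alone for those marked next. A clonotype found in both libraries follows. These sequences are shown because they carry the comparison of clone sizes. They are read 5′ to 3′ from the deposited contig tables, in lower case, and each starts with the cysteine codon that opens the loop.
buffer largest, TRBV2: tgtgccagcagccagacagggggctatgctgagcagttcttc
buffer largest, TRAV9D-3: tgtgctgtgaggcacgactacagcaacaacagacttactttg
buffer next, TRBV13-1: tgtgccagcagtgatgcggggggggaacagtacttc
buffer next, TRBV12-2: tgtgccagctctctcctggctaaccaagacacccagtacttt
rhIL-7-hyFc largest, TRBV5: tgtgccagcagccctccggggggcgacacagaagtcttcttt
rhIL-7-hyFc largest, TRAV14D-3-DV8: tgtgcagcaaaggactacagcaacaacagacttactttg
rhIL-7-hyFc next, TRBV15: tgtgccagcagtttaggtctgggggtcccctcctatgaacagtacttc
rhIL-7-hyFc next, TRBV16: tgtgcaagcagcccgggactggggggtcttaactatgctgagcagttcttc
both libraries, TRBV17: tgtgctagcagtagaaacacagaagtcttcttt
both libraries, TRAV5-4: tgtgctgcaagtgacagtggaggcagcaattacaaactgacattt

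With buffer these 3 clonotypes held 120, 112 and 73 cells, and with rhIL-7-hyFc 27, 20 and 20 cells. The largest buffer clonotype was 5.18% of all cells with both chains, and the largest rhIL-7-hyFc clonotype was 0.544%. The 2317 buffer cells fell into 977 clonotypes. Drawing the same 2317 cells from the rhIL-7-hyFc library is expected to give 2154 clonotypes. Cells in clonotypes of 2 or more made up 64.4% [62.4-66.3] with buffer and 11.6% [10.7-12.5] with rhIL-7-hyFc, or 9.84% at equal cell number. The 10 largest clonotypes held 28.3% and 3.23% of the cells. Most T cells of the treated tumour were therefore single members of their clonotype (4386 of 4960), while 825 of 2317 were with buffer.

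**Figure D1:**
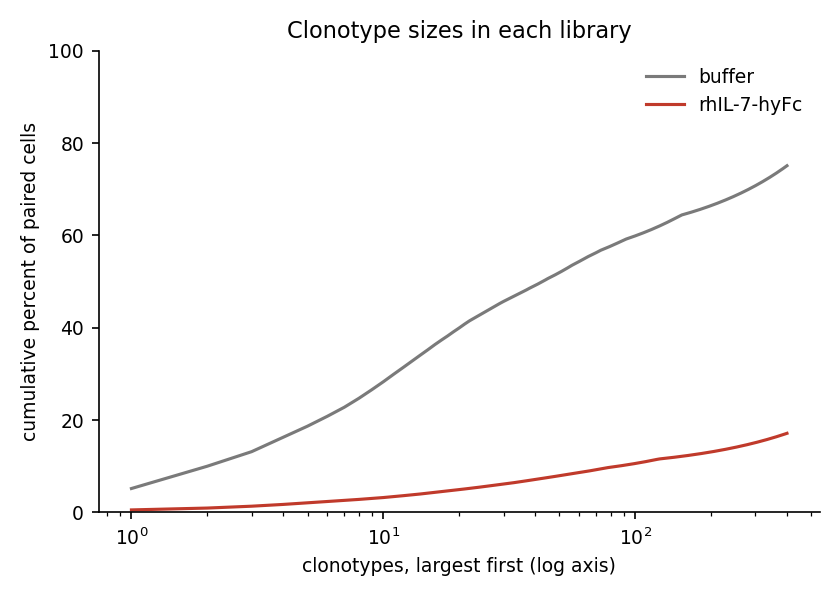
Cumulative percent of cells with both TCR chains (vertical axis) held by the clonotypes of each library, largest first (log horizontal axis, the first 400 clonotypes shown). The buffer line (grey) starts at 5.18% and lies above the rhIL-7-hyFc line (red), which starts at 0.544%, at every rank shown.

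V gene use was compared with each clonotype counted once. Among 17 TRBV genes with at least 3% of clonotypes in 1 library, the intervals of 1 gene did not overlap: TRBV26 made up 4.71% [3.47-6.23] of buffer clonotypes and 2.55% [2.11-3.05] of rhIL-7-hyFc clonotypes. Among 8 TRAV genes the intervals of 2 did not overlap: TRAV12D-3 made up 3.28% [2.25-4.59] and 5.48% [4.83-6.18], and TRAV16N 2.87% [1.91-4.12] and 4.90% [4.29-5.57]. When cells were counted in place of clonotypes, the intervals of 14 of the 17 TRBV and 6 of the 8 TRAV genes did not overlap. Cells of 1 clonotype share their V genes, so intervals that take each cell as a separate draw are too narrow. TRBV5, the V gene of the largest rhIL-7-hyFc clonotype, was in 5.94% and 5.06% of clonotypes but in 13.9% and 6.94% of cells. A second productive alpha chain, counted by cells and with the same limit, was found in 12.9% [11.5-14.3] of buffer cells and 19.5% [18.4-20.6] of rhIL-7-hyFc cells.

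Only 2 clonotypes were found in both libraries. The TRBV17 and TRAV5-4 clonotype had 7 buffer cells and 6 rhIL-7-hyFc cells, and none of these cells shared a barcode. The contig tables of experiment 2, whose mice received 1.25 mg/kg of rhIL-7-hyFc, also held it, with 70 barcodes after rhIL-7-hyFc alone and 14 after the combination with a T cell engager. Within this clonotype Pdcd1 was at 790 CPM with buffer and 883 CPM with rhIL-7-hyFc, and Gzmb at 10144 and 7339 CPM. Ifitm1 was at 47.8 and 1295 CPM, Ccr7 at 730 and 8.57 CPM, and the summed type I interferon genes at 4582 and 10006 CPM. The clonotype held 83595 and 116630 UMIs in all, so its low Ifitm1 and Ccr7 values are a few UMIs and imprecise. The part of dendritic cell RNA in its Ccr7 level was not tested.

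Across all genes the rhIL-7-hyFc cells had more RNA of lymphoid homing and resting genes and less of dysfunction, killing and division genes. Levels are CPM of the UMIs summed over the gated cells of a library. Of 8896 genes with at least 5 CPM in 1 library, 617 (6.94%) were at least 1.5-fold higher with rhIL-7-hyFc and 1816 (20.4%) at least 1.5-fold lower. The median log2 ratio over these genes, taken as log2 of CPM plus 1, was -0.19. The split depended on the scaling: with TMM factors, which raised every ratio by 0.28 on the log2 scale, 1231 genes were higher and 1033 lower. Among cells with both TCR chains 709 of 8714 genes (8.14%) were higher and 1473 (16.9%) lower. Of the 617 higher genes 600 were also at least 1.5-fold higher in those cells, and of the 1816 lower genes 1435 were also lower. Counting each clonotype once gave 386 (4.47%) and 1152 (13.4%), leaving out the cells with 5 or more dendritic cell UMIs gave 621 (7.08%) and 1565 (17.9%), and the cells without a TRB chain alone gave 670 (6.99%) and 3471 (36.2%). Of the genes with at least 50 CPM in 1 library, those furthest to the lower side were Fscn1 (201 and 5.77 CPM), H2-Aa (195 and 6.34 CPM), Cd63 (65.1 and 1.61 CPM), H2-Eb1 (146 and 4.88 CPM) and Cd74 (533 and 25.7 CPM). H2-Aa, H2-Eb1 and Cd74 serve MHC class II antigen presentation, and Fscn1, which bundles actin, marks mature dendritic cells.

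**Figure D2:**
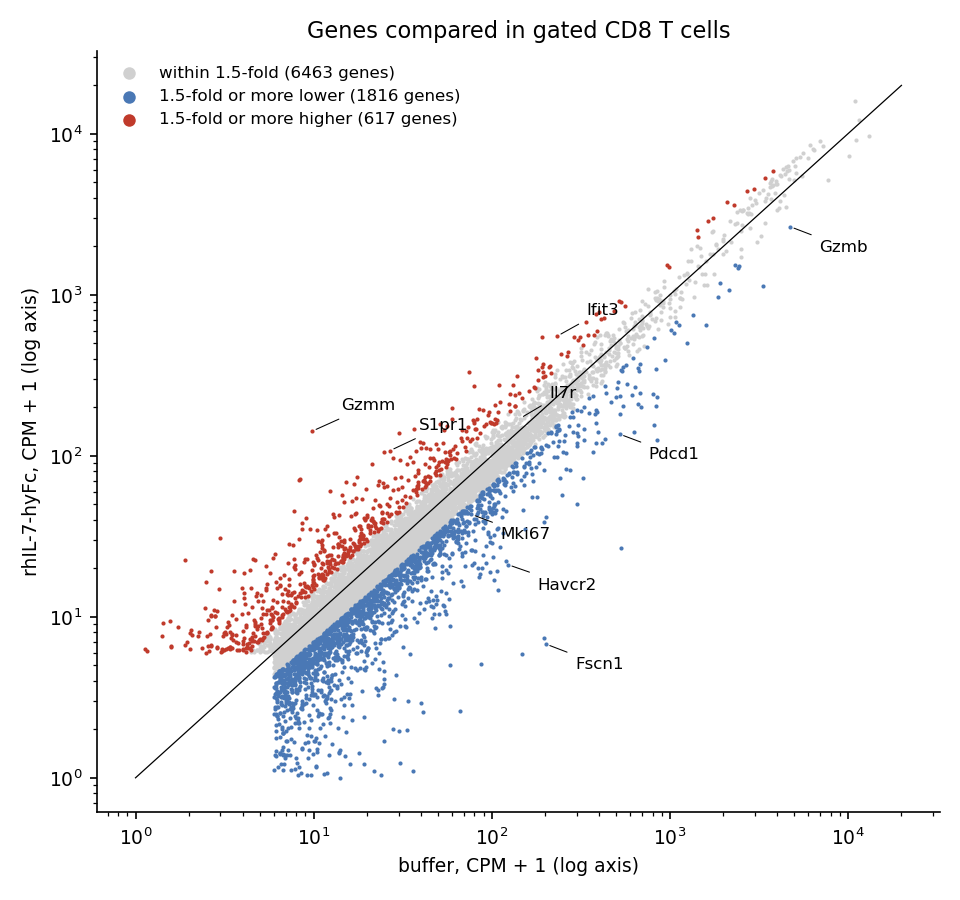
Level of each of the 8896 genes compared in the buffer library (horizontal) and the rhIL-7-hyFc library (vertical), as CPM plus 1 on log axes, with the line of equal level. The 617 genes at least 1.5-fold higher with rhIL-7-hyFc are red and the 1816 at least 1.5-fold lower are blue; Gzmm stands furthest above the line among the labelled genes and Fscn1 furthest below.

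Genes of lymph node homing and of the resting T cell state were higher with rhIL-7-hyFc. Of 23 genes of naive and memory cells 16 were at least 1.5-fold higher and 1 lower, with a median log2 ratio of 0.86. S1pr1, the receptor that lets T cells leave lymphoid tissue, was at 25.9 and 107 CPM (4.12-fold [3.84-4.44]). Tcf7 (build GRCm38, chr11:52252371-52283014, as are all gene positions below) was at 35.6 and 146 CPM, 4.11-fold [3.86-4.37] higher. Both were among the 15 genes furthest to the higher side of those with at least 50 CPM. Lef1, the partner of Tcf7, was at 33.7 and 97.3 CPM, and Satb1, a chromatin organiser of T cells, at 78.6 and 270 CPM. Slamf6, a surface marker of stem-like T cells, was at 12.0 and 40.5 CPM. Other naive genes differed less. Ccr7, the lymph node chemokine receptor, was 1.72-fold higher (412 and 707 CPM), or 2.97-fold higher (237 and 706 CPM) without the cells that held 5 or more dendritic cell UMIs, a limit chosen after the data were seen. Klf2, which drives S1pr1, was 1.5-fold higher (134 and 202 CPM), but its log2 ratio was -0.27 when each clonotype was counted once. The survival gene Bcl2 was 1.42-fold higher (151 and 216 CPM). Igfbp4, the exception, was at 22.2 and 4.93 CPM, and 1 buffer cell held 15.8% of its UMIs. Without the cells with dendritic cell UMIs it was 2.10-fold lower (10.4 and 4.93 CPM).

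Of the genes with at least 50 CPM in 1 library, Gzmm lay furthest to the higher side. It encodes granzyme M (chr10:79689020-79695261) and was at 8.83 CPM with buffer and 141 CPM with rhIL-7-hyFc, 16.0-fold [14.2-18.1] higher, while 12 of the 19 cytotoxicity genes were lower. Fcgrt, which encodes the neonatal Fc receptor, came next at 7.38 and 70.8 CPM. Prf1, the pore-forming perforin (chr10:61297833-61304680), was at 813 and 155 CPM, 5.24-fold [5.12-5.37] lower. Gzmk was at 120 and 21.2 CPM, 5.64-fold lower, and Gzmb at 4740 and 2650 CPM, 1.79-fold lower. Granzyme M thus lay on the other side from these 3 genes. Eomes, a transcription factor of memory CD8 T cells, was higher (18.8 and 61.3 CPM), and Zeb2, of terminal effector cells, lower (30.6 and 5.46 CPM). Itga4 and Klrk1, a subunit of integrin VLA-4 and the activating receptor NKG2D, were at 50.9 and 13.5 CPM and at 416 and 118 CPM.

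Inhibitory receptor and exhaustion genes were the list furthest to the lower side, with 17 of 19 measured genes at least 1.5-fold lower, none higher and a median log2 ratio of -1.73. Pdcd1 (chr1:94038305-94052553) was at 522 CPM with buffer and 135 CPM with rhIL-7-hyFc, 3.86-fold [3.76-3.97] lower. Havcr2, the inhibitory receptor TIM-3 (chr11:46454935-46481255), was at 123 and 20.1 CPM, 6.11-fold [5.72-6.52] lower. Ctla4 was 4.52-fold lower (323 and 71.5 CPM), the transcription factor Tox 3.80-fold lower (78.8 and 20.7 CPM) and the ectoenzyme Entpd1 2.87-fold lower (94.0 and 32.8 CPM). The list median was -1.72 among cells with both TCR chains. The costimulatory receptors Tnfrsf9 (845 and 229 CPM), a member of the list, and Tnfrsf4 (197 and 38.0 CPM), both induced by TCR signals, were lower, as was Ifng (367 and 104 CPM). In the rhIL-7-hyFc library 1 cell held 15.8% of the Ifng UMIs and 16.1% of the Ccl3 UMIs.

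Genes that interleukin-7 signalling acts on were split between the directions. Of 17 measured interleukin-7 and STAT5 target genes 3 were higher and 3 lower, with a median of 0.06 against -0.19 for all genes. Il7r itself was at 143 and 170 CPM, 1.19-fold [1.14-1.23] higher. Socs3, a feedback inhibitor of cytokine receptors, was at 109 and 273 CPM, 2.50-fold higher. Socs1 and Pim2 were the other higher genes. The feedback genes Socs2 and Cish stood on the opposite side. Socs2 was at 28.8 and 12.2 CPM, 2.35-fold lower, but at 16.7 and 12.1 CPM, 1.38-fold lower, without the cells with dendritic cell UMIs. Cish was at 193 and 130 CPM, 1.48-fold lower. With each clonotype counted once Socs3 was 1.40-fold higher, Socs2 1.19-fold lower and Cish 1.31-fold lower. Il2ra, the high-affinity interleukin-2 receptor chain, was at 63.6 and 27.9 CPM. Of 17 common gamma chain receptor and JAK-STAT genes 2 were higher, Il4ra (69.9 and 112 CPM) and Jak1, and 2 lower, Stat3 (378 and 182 CPM) and Il2ra. The median of that list was -0.20, which turns positive with TMM factors. With each clonotype counted once Il4ra was 1.12-fold higher, Stat3 1.75-fold lower and Il2ra 1.83-fold lower.

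Genes of division and of fuel use were lower with rhIL-7-hyFc. Of 29 S phase genes 25 were at least 1.5-fold lower and none higher, with a median of -0.90, and of 29 G2 and mitosis genes 27 were lower and none higher, with a median of -1.01. Mki67, the proliferation marker, was at 75.9 and 42.3 CPM, Dut, a nucleotide-pool enzyme, at 299 and 118 CPM, and the mitotic kinase Cdk1 at 71.0 and 27.9 CPM. Of 21 glycolysis and hypoxia genes 18 were lower, such as Slc16a3, a lactate exporter (91.8 and 20.6 CPM), and Bnip3, a hypoxia-induced mitophagy gene (96.9 and 17.9 CPM). Of 19 cholesterol synthesis genes 14 were lower. Of the 23 respiratory chain genes none passed 1.5-fold in either direction, with a median of -0.10 that also turns positive with TMM factors. For ribosomal proteins, 7 of 43 genes lay past 1.5-fold on the higher side and none on the lower, around a median of 0.38. Gimap6, of a GTPase family of resting lymphocytes, was at 267 and 443 CPM, the only 1 of 8 family members past 1.5-fold. Its ratio was 1.07-fold with each clonotype counted once.

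The share of cells with a UMI depends on depth, so each cell was thinned to 4000 UMIs and shallower cells were left out (684 with buffer, 217 with rhIL-7-hyFc). Cells with a Tcf7 UMI and none of Pdcd1 made up 10.8% [9.63-12.1] with buffer and 40.5% [39.2-41.9] with rhIL-7-hyFc. Cells with Pdcd1 and no Tcf7 made up 58.4% [56.5-60.4] and 12.2% [11.4-13.2]. Cells with both, the pattern of stem-like exhausted T cells, made up 4.15% [3.40-5.00] and 1.47% [1.16-1.84]. Without thinning, 69.1% and 16.9% of cells had a Pdcd1 UMI, and 19.8% and 63.8% a Tcf7 UMI. Macrophage-like barcodes of the same libraries, which should lack both genes, gave a Pdcd1 UMI in 1.52% and 0.885% and a Tcf7 UMI in 0% and 2.12% after thinning, from the 51 and 101 such barcodes with at least 4000 UMIs. The medians of all 70 and 110 of them were 8122 and 13562.5 UMIs. The shares of Pdcd1-only and Tcf7-only T cells were above this background in both libraries. The low share with both genes was read as a description only.

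**Figure D3:**
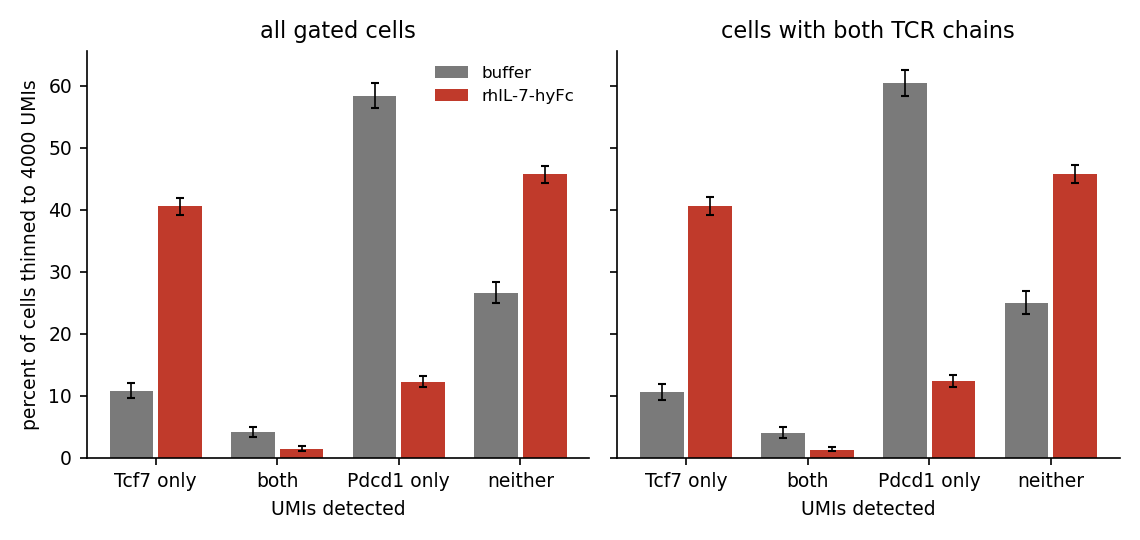
Percent of gated cells (left) and of cells with both TCR chains (right), each thinned to 4000 UMIs, with UMIs of Tcf7 only, of both genes, of Pdcd1 only or of neither; bars are libraries (grey buffer, red rhIL-7-hyFc) and error bars 95% Clopper-Pearson intervals. In both panels the Tcf7-only bar is higher and the Pdcd1-only bar lower with rhIL-7-hyFc.

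Gzmm had a UMI in 3.10% [2.46-3.86] of thinned buffer cells and 32.1% [30.9-33.4] of thinned rhIL-7-hyFc cells, against 0% and 0.486% of macrophage-like barcodes. Gzmb was seen in 89.3% and 80.7% of T cells, but also in 41.6% of macrophage-like barcodes with buffer and 5.04% with rhIL-7-hyFc. Its background therefore differed between the libraries. For Havcr2, Entpd1, Cd44, Ifit3 and Isg15 the share in macrophage-like barcodes was above that in T cells in at least 1 library, so their shares were not read.

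Because clone sizes differed so widely, the libraries were also compared within classes of clonotype size. Among cells that were the single member of their clonotype (825 with buffer, 4386 with rhIL-7-hyFc) 361 of 8570 genes (4.21%) lay past 1.5-fold on the higher side and 1069 (12.5%) on the lower. With TMM factors 681 were higher and 663 lower. Among cells in clonotypes of 5 or more (1280 cells of 64 clonotypes with buffer, 355 cells of 40 clonotypes with rhIL-7-hyFc) 281 of 8603 genes (3.27%) were higher and 299 (3.48%) lower, or 285 (3.32%) and 264 (3.08%) without the cells with dendritic cell UMIs. The median over all genes was -0.10 in single cells and -0.02 in expanded clonotypes. Members of 1 clonotype are not independent of each other, and the class of 5 or more rests on different cell numbers in each library.

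The single cells kept much of the difference in exhaustion genes. Among them 15 of 19 such genes were lower and none higher, with a median of -1.35. Pdcd1 was at 197 and 31.8 CPM, 6.18-fold lower, and Havcr2 at 33.6 and 3.31 CPM. Gzmk was at 87.0 and 7.62 CPM. Homing genes had smaller ratios here than in all cells: Tcf7 was at 116 and 172 CPM (1.48-fold) and Lef1 at 101 and 112 CPM (1.11-fold). Klf2 and Bcl2 lay on the other side, at 320 and 232 CPM and at 284 and 234 CPM, neither of them past 1.5-fold. Gzmm was still 6.96-fold [5.99-8.13] higher, at 24.1 and 168 CPM, and Eomes 2.22-fold higher, at 31.8 and 70.5 CPM. After thinning, Pdcd1 only was found in 21.7% and 3.36% of single cells and Tcf7 only in 28.0% and 45.5%.

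In expanded clonotypes most of these differences were small. Pdcd1 was at 693 CPM with buffer and 692 CPM with rhIL-7-hyFc, a ratio of 0.999 [0.962-1.04], and thinned cells with Pdcd1 and no Tcf7 made up 84.3% [82.1-86.3] and 85.2% [81.0-88.8]. Thinned cells with both genes made up 1.23% [0.688-2.04] and 2.27% [0.978-4.45], the other direction from all gated cells but with overlapping intervals. Without thinning they made up 3.36% and 7.61%. Gzmb was at 6261 and 5816 CPM, Ifng at 491 and 517 CPM, Mki67 at 84.1 and 79.6 CPM and Klrk1 at 495 and 509 CPM. None of the 29 S phase and 29 G2 and mitosis genes passed 1.5-fold in either direction, with medians of -0.09 and -0.15. Of the 19 exhaustion genes 2 passed 1.5-fold, both lower: Ctla4 was at 418 and 276 CPM (1.52-fold) and Tox at 100 and 64.8 CPM (1.55-fold). Prf1 was at 1181 and 619 CPM, 1.91-fold [1.84-1.98] lower. It was the 1 gene of the 19 cytotoxicity genes past 1.5-fold on that side, while Gzma, Gzmc and Gzmm were past it on the higher side. Gzmm was scarce in this class, with a median of 0 CPM over the clonotypes of each library. Of the 40 rhIL-7-hyFc clonotypes 12 had any Gzmm UMI. Il1r2, a decoy receptor for interleukin-1, was at 152 and 73.8 CPM. Ccr7 was lower here, at 156 and 55.4 CPM, against higher in single cells (562 and 827 CPM). Dendritic cell RNA was present beside this value. Without the cells with 5 or more dendritic cell UMIs, which left 1210 buffer and 353 rhIL-7-hyFc cells of expanded clonotypes, Ccr7 was at 93.8 and 55.8 CPM, 1.68-fold [1.48-1.91] lower.

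**Figure D4:**
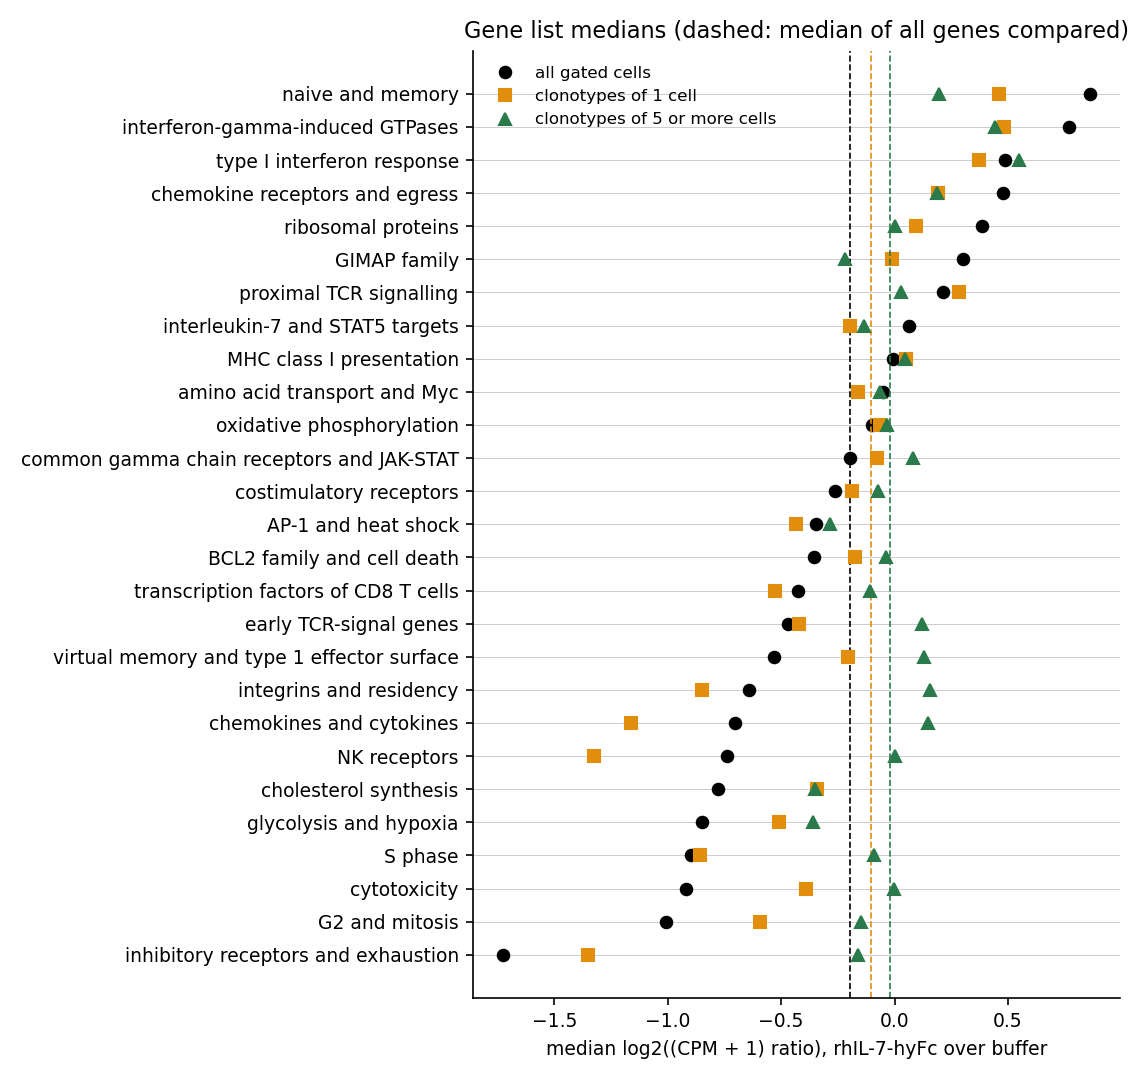
Median log2 ratio (rhIL-7-hyFc over buffer, of CPM plus 1) of the measured members of 27 gene lists, in all gated cells (black circles), in clonotypes of 1 cell (orange squares) and in clonotypes of 5 or more cells (green triangles); dashed lines are the medians of all genes compared. The exhaustion list lies at -1.73, -1.35 and -0.16, and the type I interferon list at 0.49, 0.37 and 0.55.

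The lists of interferon-induced genes had median ratios on the higher side with rhIL-7-hyFc in each class of cells. Type I interferons signal through a STAT and IRF9 complex to genes with an interferon-stimulated response element in their promoters, and their products block viral replication. In the list of the type I interferon response, 41 genes were measured, of which 19 lay at least 1.5-fold higher and none lower in all gated cells (median 0.49), 8 and none in single cells (median 0.37), and 19 and none in expanded clonotypes (median 0.55). The interferon-gamma-induced GTPases, which attack vacuoles that hold pathogens, had medians of 0.77, 0.48 and 0.44, with 11, 5 and 6 of 16 higher and none lower. Ifit3, a translation inhibitor, was at 233 and 554 CPM in all cells (2.38-fold [2.32-2.44]), at 392 and 602 CPM in single cells and at 160 and 300 CPM in expanded clonotypes (1.87-fold [1.76-1.99]). Isg15, a ubiquitin-like modifier, was at 961 and 1538 CPM, 1102 and 1600 CPM, and 741 and 1143 CPM in the same order. Oasl2, a paralogue of the viral RNA sensors of the OAS family, was 2.89-fold, 1.67-fold and 1.73-fold higher, and the GTPase gene Tgtp1 4.07-fold, 2.03-fold and 2.33-fold higher. Near-identical copies such as Ifit3 and Ifit3b, or Tgtp1 and Tgtp2, can share reads, so their separate levels are uncertain.

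Stretches of the Ifit3 and Isg15 promoters are shown as examples of matches to the response element; the Oasl2 promoter held none. The motif searched, chosen after the values were seen, was GAAA, any 2 bases and again GAAA, on both strands, so it also appears as TTTC, any 2 bases and TTTC. Matches are in capitals, with overlapping ones joined. Sequences are RefSeq's on build GRCm38.p6, on the strand of the gene.
Ifit3 promoter, chr19:34583353-34583436, plus strand: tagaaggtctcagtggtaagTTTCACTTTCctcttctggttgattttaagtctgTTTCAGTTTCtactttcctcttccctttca
Isg15 promoter, chr4:156200855-156200916, minus strand: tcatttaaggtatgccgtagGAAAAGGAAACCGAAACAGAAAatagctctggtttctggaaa

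The Ifit3 stretch held 2 matches, which began 156 and 122 bases before the start site. The Isg15 stretch held 3 overlapping matches, the first and last of which began 78 and 66 bases before the start site. Over windows of 300 bases around the start, 25 of the 38 promoters matched to the type I interferon list (65.8%) and 9 of 11 promoters of the interferon-gamma GTPases (81.8%) held the motif. The share was 3.48% over promoters of the genes compared and 3.44% over all 32851 promoters. Promoters were matched for 31 of 42 and 10 of 16 genes of these lists. The same motif was in 1 of 27 promoters of S phase genes and in none of 17 promoters of exhaustion genes. A match is a description of the letters and not of binding. The 2 interferon lists hold genes known to be interferon-induced, so their high shares do not bear on the difference between the libraries.

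Some genes within expanded clonotypes were named after their values were seen. On the lower side dendritic cell genes lay furthest, with H2-Eb1 28.7-fold, Fscn1 20.3-fold, H2-Aa 16.1-fold and Cd74 9.03-fold lower. Furthest on the higher side, Xcl1, a chemokine that attracts cross-presenting dendritic cells, was 4.15-fold [3.86-4.46] higher with rhIL-7-hyFc, at 79.9 and 331 CPM. In single cells Xcl1 lay past 1.5-fold on the lower side, at 446 and 194 CPM. Ifitm1, which blocks virus entry at membranes and was in none of the lists, was 3.27-fold [3.19-3.34] higher, at 916 and 2991 CPM, and its neighbours Ifitm3 (536 and 1339 CPM) and Ifitm2 (396 and 824 CPM) were 2.50-fold and 2.08-fold higher. None of the 3 was at least 1.5-fold higher in single cells: Ifitm1 was at 113 and 105 CPM and Ifitm3 at 223 and 159 CPM. Ifitm2 was past 1.5-fold on the lower side there, at 85.7 and 32.9 CPM. Over all gated cells Ifitm1 was at 630 and 529 CPM. The sign of the Ifitm1 difference in single cells and in all gated cells turns with TMM factors. Ifit1, Oas3, Mx1, Cmpk2, Daxx and Slfn5, further interferon-induced genes, were 1.79-fold to 2.19-fold higher in expanded clonotypes. Of 18 promoters matched to 13 of the 15 genes furthest to the higher side, 7 (38.9%) held the motif, but the Ifitm1 and Xcl1 promoters did not. Ifit3 and the further interferon-induced genes above are among the 15, so this share does not bear on the difference between the libraries.

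Taking each expanded clonotype as 1 value showed how widely these levels were shared. The summed type I interferon genes ran from 2661 over a median of 9434 to 30964 CPM in the 64 buffer clonotypes and from 8702 over 13227 to 32056 CPM in the 40 rhIL-7-hyFc clonotypes. The ranges overlapped, and 38 of the 40 lay above the buffer median. Ifitm1 had a median of 509 CPM (0 to 5494) with buffer and 2652 CPM (0 to 6916) with rhIL-7-hyFc, and Ifitm3 459 and 1276 CPM. For each of these genes, and for Isg15 (687 and 1017 CPM), 37 of 40 rhIL-7-hyFc clonotypes lay above the buffer median. Prf1 had medians of 991 and 516 CPM, with 36 of 40 below the buffer median. Pdcd1 had medians of 678 and 701 CPM, with 21 of 40 above. Xcl1 was less evenly spread, with medians of 34.6 and 139 CPM and 28 of 40 above. Gzma, 2.09-fold higher in the summed counts, was above the buffer median in only 15 of 40 clonotypes, so that its difference rested on a few clonotypes. Clonotypes of 1 library share that library and are not replicates of the treatment.

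**Figure D5:**
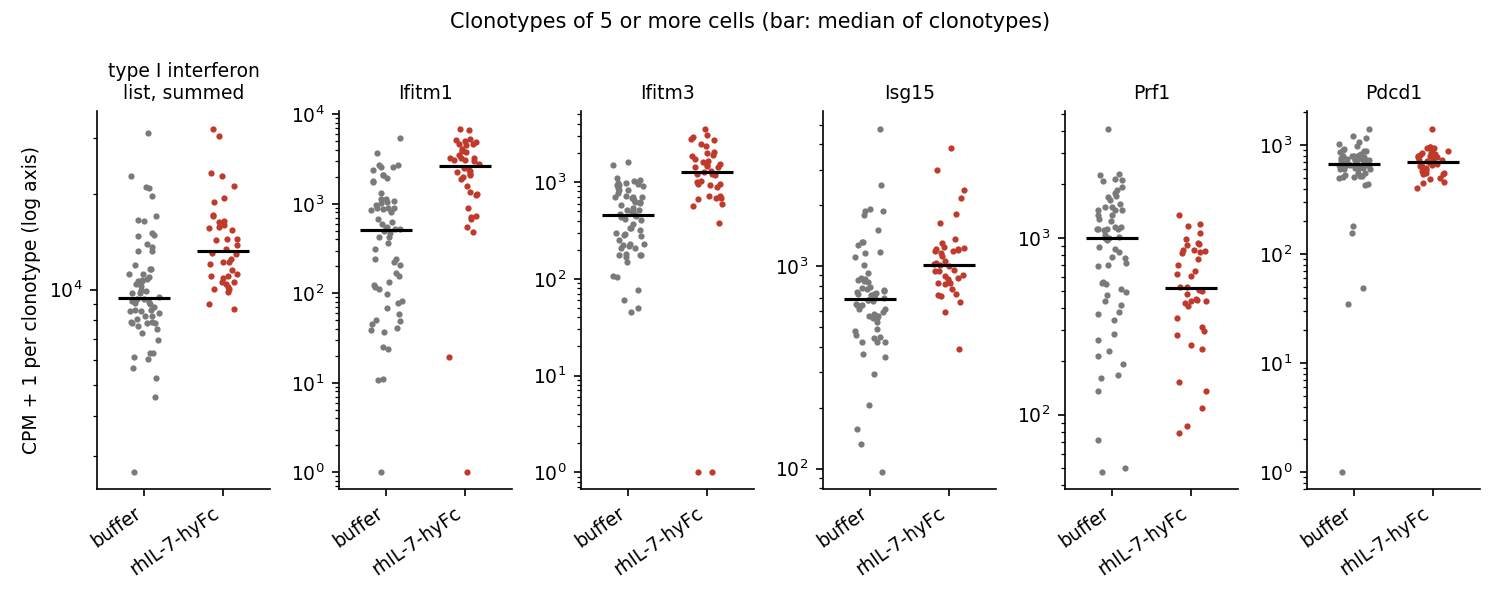
Level in each clonotype of 5 or more cells, as CPM plus 1 on log axes that do not start at 0, of the summed type I interferon list and of 5 genes; points are the 64 buffer (grey) and 40 rhIL-7-hyFc (red) clonotypes and bars their medians. The interferon list, Ifitm1, Ifitm3 and Isg15 sit higher and Prf1 lower with rhIL-7-hyFc, while Pdcd1 has medians of 678 and 701 CPM.

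Expanded clonotypes were also set against single cells of the same library. With buffer 1294 of 8824 genes (14.7%) were at least 1.5-fold higher in expanded clonotypes and 875 (9.92%) lower. With rhIL-7-hyFc 2064 of 8741 genes (23.6%) were higher and 1014 (11.6%) lower. Pdcd1 was at 197 CPM in single and 693 CPM in expanded cells with buffer, and at 31.8 and 692 CPM with rhIL-7-hyFc. Tcf7 was at 116 and 3.80 CPM with buffer, and at 172 and 8.15 CPM with rhIL-7-hyFc. The expanded cells of both libraries thus had nearly equal levels of Pdcd1, and the levels in single cells differed.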

How the data were processed

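Single-cell 5′ expression and TCR libraries of CD8 T cells enriched from MC38 tumours were used, 1 library of each kind per group. Each deposited matrix holds unnormalized UMI counts by barcode. Per the file headers the authors made it with Cell Ranger 4.0.0, and the submitters' processing notes name the build GRCm38. The deposited contig tables give UMI counts per assembled chain, and their clonotypes were rebuilt here. The sources used here do not say how barcodes were chosen or which annotation was counted. Gene positions are those of the GENCODE annotation of GRCm38 in the reference.

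Members and gene lists were chosen with earlier results of these data known. UMIs were summed over gated cells and divided by their total (CPM), without the gate's genes and mitochondrial genes among those compared. Genes with at least 5 CPM in 1 library were compared, and at least 1.5-fold was called. With 1 library per group no test was made. Ratios of lists are log2 of CPM plus 1. The text names, from the genes that reached 50 CPM in either library, the 15 highest and 15 lowest log2 ratios. From genes that reached 5 CPM it names the 3 furthest members of each of 27 pathway lists, with the furthest of each direction. The 2 most abundant such genes of each of 9 marker lists are named too, and a set of T cell genes is always shown. Others are said to be chosen after their values were seen. Shares were computed as the expectation after thinning to 4000 UMIs. Macrophage-like barcodes had at least 5 UMIs of Lyz2, C1qa, C1qb and C1qc and none of Cd3 or Cd8 genes. No doublet caller was run. Leaving out cells with more than 1 TRB or in the top 5% of UMIs was an alternative, beside other scalings, floors and gates. The interval and ratio code was tested on simulated data. Python 3.11.15, numpy 2.4.6, scipy 1.17.1, pandas 2.3.3 and matplotlib 3.10.9 were used, with edgeR 4.0.16 in R 4.3.3 for TMM factors only. Some genes and 1 clonotype are not reported here.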

Additional observations from a re-analysis of the deposited data

How the results depend on the processing

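No paired analysis was possible because each group has 1 library and no replicate numbers pair the samples. Counts of genes at least 1.5-fold higher and lower moved with several settings. In all gated cells they were 1231 and 1033 with TMM factors, 1217 and 1040 with median-of-ratios factors, 367 and 850 with a floor of 20 CPM, 2723 and 6657 with no floor beyond 1 UMI, and 386 and 1152 with each clonotype counted once, and 2766 were lower as a mean over cells. In clonotypes of 1 cell they were 681 and 663 (TMM), 665 and 675 (median of ratios), 186 and 381 (floor of 20 CPM) and 3127 and 3979 (no floor). In clonotypes of 5 or more cells they were 117 and 82 (floor of 20 CPM) and 1856 and 3411 (no floor). The lower count there was 545 as a mean over cells, 562 without cells with an Mki67 or Top2a UMI and 591 without cells with more than 1 TRB or in the top 5% of UMIs. For expanded over single cells with buffer they were 707 and 398 (floor of 20 CPM) and 3956 and 3117 (no floor). With rhIL-7-hyFc they were 1357 and 1639 (TMM), 1130 and 556 (floor of 20 CPM) and 4308 and 4719 (no floor), with 1589 lower by median of ratios. The share of rhIL-7-hyFc cells in clonotypes of 2 or more was 12.6% by TRB alone and 10.7% by the deposited clonotypes. The TMM and floor effects follow from the construction of those settings, and for the others the cause was not tested.

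Of 351 list medians recomputed in all gated cells, 337 moved by at most 0.3 on the log2 scale and 14 by more, and none that was past 1.5-fold changed sign. Of 1612 values of named genes there, 1332 moved by at most 0.3 and 278 by more. The other 2 were past 1.5-fold and changed sign, both with each clonotype counted once: Klra3 to -0.18 and Klf2 to -0.27. Sign changes of genes not past 1.5-fold, such as Bcl2 to -0.13 in that setting, were not counted apart. In expanded clonotypes Fcgrt changed sign to -0.11 (each clonotype once), -0.70 (mean over cells), -1.30 (without Mki67 or Top2a cells) and -1.10 (without more than 1 TRB or the top 5% of UMIs). S1pr1 went to -0.39 (each clonotype once) and -0.44 (without Mki67 or Top2a cells), Itgb7 to -0.012 (each clonotype once), Nsg2 to -0.025 (without Mki67 or Top2a cells), and Cd83 to 0.40 (without dendritic cell UMIs). Fcgrt had 28 and 15 UMIs in expanded clonotypes and Nsg2 29 and 23, so their ratios there are imprecise. No comparison has a second library per group. For the shares of cells with a UMI of each of 18 genes in all gated cells, all 108 values recomputed without thinning, at 2000 UMIs or requiring 2 UMIs fell outside the 95% interval of the value thinned to 4000 UMIs.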

Other observations

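Chemokine, adhesion and natural killer receptor genes differed within their lists. In all gated cells 7 of 15 measured chemokine receptor and egress genes were at least 1.5-fold higher with rhIL-7-hyFc and 4 lower, with a median log2 ratio of 0.48. The chemokine receptor Cxcr6, a marker of tissue-resident cells, was at 430 and 125 CPM, while the integrin chain Itgb7, used for entry into gut tissue, was at 77.3 and 166 CPM. Of 15 measured natural killer receptor genes 9 were lower and 2 higher, with a median of -0.74. Of 20 measured genes of the BCL2 family and cell death 7 were lower and 3 higher. The death receptor Fas was at 15.8 and 34.7 CPM. None of 20 MHC class I presentation genes passed 1.5-fold in either direction. With each clonotype counted once Cxcr6 was 2.91-fold lower, and Itgb7 and Fas were 1.07-fold and 1.35-fold higher.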
